A study of Mus musculus with 4 samples.

Results

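The 8 genes described here are Pdcd1, Lag3, Tigit, Havcr2, Ctla4, Cd160 and Entpd1, which encode surface proteins that restrain T cells or NK cells, and Tox, which encodes a nuclear factor linked to their expression. They are 8 of the 31053 genes measured, were chosen as a list of genes and not by a threshold on their values, and all 8 were present in the files. They were read in the 6 T and NK cell types that the authors named: naive and memory CD4 T cells (Nai Cd4, Mem Cd4), naive and memory CD8 T cells (Nai Cd8, Mem Cd8), early activated CD8 T cells (Early Act Cd8) and NK cells, 8701 cells of 27577 barcodes. The study profiled spleen cells of C57BL/6 mice with 10x Genomics droplet sequencing in 4 libraries, 1 per group. The young and the aged WT mice are labelled WT, and the series design gives WT mice as carrying floxed miR155 (miR155 fl/fl). The miR146a knockout lacked miR146a in the whole body. The last group, miR146aKO_miR155TCKO, lacked miR146a in the whole body and miR155 in T cells, and is called the double knockout here. The Cre that removed miR155 from T cells is not named in the sources used here. All 3 aged groups were 15 months old and each was a pool of 3 to 6 mice. The age and pool size of the young WT group are not given. Live (DAPI-) CD45+ cells were sorted through a gate of low forward and side scatter, so larger cells, activated lymphocytes among them, could be under-represented.

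Inhibitory receptors are induced when T cells are activated and, together with TOX, remain high in cells that meet antigen for a long time, a state called exhaustion. PD-1 (Pdcd1) recruits a phosphatase that dampens antigen receptor and CD28 signalling, CTLA-4 competes with CD28 for its ligands, and LAG-3 binds MHC class II. Follicular helper cells, regulatory T cells and aged memory cells also carry several of these receptors, so their transcripts do not by themselves mark an exhausted cell. miR-155 promotes T cell activation and miR-146a restrains signalling to NF-kB.

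The mature sequences of the 2 deleted microRNAs are shown because the groups differ by them, with the seed (bases 2 to 8, which pair with target transcripts) in capitals. They are the RefSeq entries, placed on GRCm38.p6 at chr11:43374435-43374456 (minus strand) for miR-146a-5p and chr16:84714143-84714165 (plus strand) for miR-155-5p.
miR-146a-5p: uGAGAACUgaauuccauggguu
miR-155-5p: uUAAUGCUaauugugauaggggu
The annotated 3′ UTRs of all 8 genes were searched for matches to these seeds, counting an 8mer or either form of 7mer. Ctla4 held the only miR-155 match, a 7mer to bases 2 to 8 on the plus strand of GRCm38 at chr1:60914968-60914997, against 13.4% of 21000 genes with any match.
Ctla4 site: cataaggatatAGCATTAtggtgtggggtc
Entpd1 held the only miR-146a match, a 7mer to bases 2 to 7 followed by A at chr19:40740827-40740856 (plus strand), against 19.2% of genes.
Entpd1 site: ctgtatcttctGTTCTCAtagcagtctcca
The capitals mark the matched letters. Pdcd1, Lag3, Tigit, Havcr2, Cd160 and Tox had no such match in their annotated 3′ UTRs.

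Promoter windows of 300 bases from RefSeq were found for 6 of the 8 genes, in 8 windows. None was found for Lag3 or Tox, so these 2 genes were not searched for motifs. The windows are shown for the genes of PD-1 and TIM-3, Pdcd1 and Havcr2, whose levels in memory cells differed between libraries and whose windows hold different motifs. The Pdcd1 window lies at chr1:94052504-94052803 (minus strand) and the Havcr2 window at chr11:46454681-46454980 (plus strand) of GRCm38.p6, each read 5′ to 3′ along the gene. Capitals mark matches on either strand to the AP-1 motif TGANTCA, the NFAT core GGAAA or the NF-kB motif.
Pdcd1: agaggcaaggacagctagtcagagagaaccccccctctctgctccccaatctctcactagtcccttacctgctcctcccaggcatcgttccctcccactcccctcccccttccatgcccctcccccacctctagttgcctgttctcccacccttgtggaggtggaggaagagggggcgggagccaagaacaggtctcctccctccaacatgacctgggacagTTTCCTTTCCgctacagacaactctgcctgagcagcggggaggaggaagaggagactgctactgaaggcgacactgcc
Havcr2: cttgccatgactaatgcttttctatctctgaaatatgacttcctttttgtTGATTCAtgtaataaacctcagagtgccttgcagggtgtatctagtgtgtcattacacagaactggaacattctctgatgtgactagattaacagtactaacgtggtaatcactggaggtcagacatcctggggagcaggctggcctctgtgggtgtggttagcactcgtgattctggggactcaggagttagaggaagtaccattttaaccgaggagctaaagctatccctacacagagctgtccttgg
AP-1 matches occurred in 7.81% of 32851 windows and, among the 6 genes with a window, in Havcr2 alone. NFAT matches occurred in 61.3% of all windows and in those of Pdcd1, Tigit, Ctla4, Cd160 and Entpd1. The NF-kB motif was found in 8.46% of all windows and in that of Cd160, and an E-box (CANNTG) in 72.3% of all windows and in those of Tigit, Ctla4, Cd160 and Entpd1. These motifs can overlap, and a match describes letters, not binding.

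Each library held 17561683 to 22399381 UMIs (unique transcript molecules) over 5702 to 7626 barcodes, and the T and NK cells had a median of 2163 to 2574 UMIs. Of 27160 distinct barcode sequences, 416 occurred in more than 1 library, 3 to 8 per library pair in cells of the same type name. A level here is a gene's UMIs summed over the cells of a type and library, as counts per 1e6 UMIs of those cells (CPM), with an exact 95% Poisson interval. Intervals cover counting error only, and with 1 library per group no difference between groups has a replicate check or a test. Mir155hg, the host transcript of miR-155, stood at 14.3, 26.1, 24.6 and 29.4 CPM in Mem Cd4 and at 2.41, 3.45, 16.3 and 9.02 CPM in Mem Cd8 in young WT, aged WT, miR146a knockout and double knockout, from 3 to 41 UMIs per value. The deleted part of the gene need not lie in what was counted, so this checks no label. The memory types carried the lineage markers of their names: Cd8b1 was detected in 56.3% to 65.8% of Mem Cd8 cells and Cd4 in 4.76% to 7.85%. In the same library order, naive T markers summed to 943, 228, 156 and 188 CPM in Mem Cd4 and 1075, 546, 315 and 596 CPM in Mem Cd8. Memory T markers summed to 1103, 2752, 3141 and 3279 CPM in Mem Cd4 and 8042, 18822, 37839 and 22268 CPM in Mem Cd8. The part of these marker differences in the ratios below was not tested. Myeloid markers moved with genotype: their summed level was 164, 203, 772 and 818 CPM in Mem Cd4 and 258, 244, 658 and 655 CPM in Mem Cd8. Of 6 myeloid markers 4 to 6 were detected, and Csf1r or Itgam was at 0 in all but 1 of these 8 sums. S100a8 gave 367 to 505 CPM of the sums in the knockouts and 4.82 to 8.03 CPM in the WT libraries. It was detected in 60.7% to 68.3% of memory T cells of both knockouts, in 57.6% and 61.1% of follicular B cells (Fo B) there, and in at most 1.75% of these types in the WT libraries. Fo B cells also gave the free-RNA background of 7 of the 8 genes, a UMI in at most 0.493% of cells. Entpd1 was detected in 0.742% to 1.08% of Fo B cells. In young WT it had 11 UMIs in 1483 Fo B cells and 0 in 1390 Nai Cd4 cells, so that share is not read as background here.

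**Figure D1:**
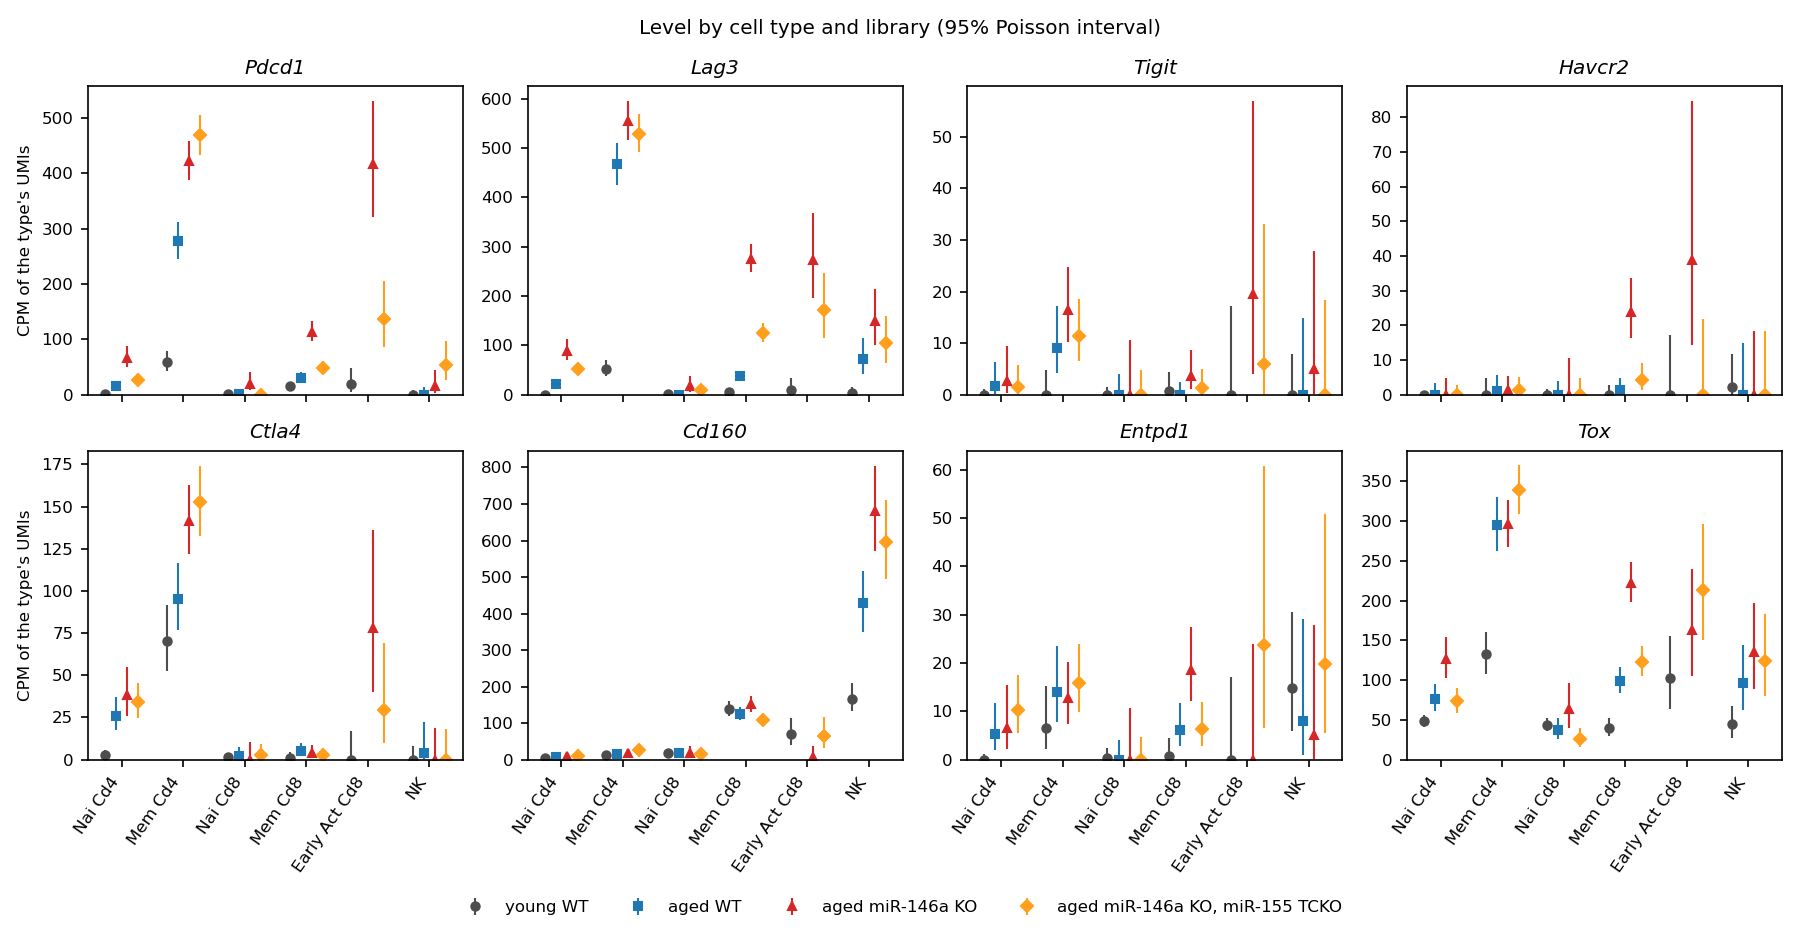
Level of each of the 8 genes (vertical axis, CPM of the type's UMIs, linear and scaled per gene) in 6 T and NK cell types (horizontal axis) and 4 libraries, with 95% Poisson intervals. Early Act Cd8 of aged WT, with 14 cells, is left out. Pdcd1, Lag3, Ctla4 and Tox are highest or near their highest in Mem Cd4, Cd160 is highest in NK cells, and Havcr2 is seen mainly in Mem Cd8 of the miR146a knockout. The Havcr2 point of Early Act Cd8 in that library rests on 6 UMIs in 3 of 35 cells, 4 of them in 1 cell.

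Mem Cd4 cells held most of the Pdcd1, Lag3, Ctla4 and Tigit transcripts: 75.1%, 68.1%, 78.2% and 70.1% of all UMIs of these genes in T and NK cells, and 46.2% of those of Tox. PD-1 transcripts (Pdcd1, chr1:94038305-94052553 of mm10) stood at 59.8 CPM (43.8 to 79.8) in young WT, 277 (245 to 312) in aged WT, 422 (388 to 458) in the miR146a knockout and 468 (433 to 506) in the double knockout. Lag3 (chr6:124904361-124911705) stood at 52.0 CPM (37.2 to 70.9), 467 (425 to 511), 554 (515 to 596) and 529 (492 to 569) in the same order. Tox (chr4:6686353-6991557) stood at 133 CPM (108 to 161), 295 (262 to 331), 296 (268 to 327) and 339 (309 to 371). The 3 aged libraries thus lay above the young one for all 3 genes, with intervals that did not overlap it. Among themselves, the aged libraries separated for Pdcd1, where aged WT lay below both knockouts, and much less for Lag3 and Tox.

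From young to aged WT in Mem Cd4, the ratio was 8.97 (95% conditional binomial interval 6.48 to 12.7) for Lag3, 4.63 (3.38 to 6.47) for Pdcd1 and 2.22 (1.77 to 2.81) for Tox. Ctla4 (chr1:60887000-60915832), which outcompetes CD28 for CD80 and CD86, stood at 70.2 CPM (52.8 to 91.7), 95.3 (77.1 to 117), 141 (122 to 163) and 153 (133 to 174). Its aged to young WT ratio was 1.36 (0.962 to 1.93), an interval that includes 1. A gene counted as higher or lower in a comparison when its ratio was at least 1.5-fold, with 1 count added to each sum and at least 20 UMIs over both libraries. By that rule 3 of the 5 genes with enough UMIs were higher in aged WT (Pdcd1, Lag3, Tox), where 16.6% of all 7127 genes were, and 0 were lower, where 7.46% were. Their median log2 ratio was 1.14, and that of all genes 0.11.

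From aged WT to the miR146a knockout in Mem Cd4, Pdcd1 was higher 1.52-fold (1.32 to 1.77) and Ctla4 1.48-fold (1.15 to 1.92), while Lag3 differed 1.19-fold (1.06 to 1.34) and Tox 1.00-fold (0.861 to 1.17). Tigit, a receptor for CD155 (chr16:43648867-43664146), had 0, 9, 22 and 16 UMIs in the 4 libraries. Its knockout to aged WT ratio was 1.81 (0.802 to 4.47), and it was at least 2.31-fold higher in aged than in young WT against a floor of 3 counts. Pdcd1 and Tigit were the 2 of 7 genes past 1.5-fold, where 6.96% of all genes were, none was lower, where 7.70% were, and the members' median log2 ratio was 0.25 against -0.02. From the miR146a knockout to the double knockout the Mem Cd4 ratios were 1.11 (0.990 to 1.24) for Pdcd1, 0.955 (0.861 to 1.06) for Lag3, 1.14 (0.999 to 1.31) for Tox and 1.08 (0.883 to 1.32) for Ctla4. None of 7 genes passed 1.5-fold upwards, where 5.08% of all genes did, or downwards, where 6.16% did. Against aged WT, with which the comparison shares that library, the double knockout had 1.69-fold (1.47 to 1.95) the Pdcd1 and 1.60-fold (1.25 to 2.06) the Ctla4 level, and 3 of 7 genes (with Cd160) passed, where 6.69% of all genes did, and none was lower, where 7.45% were. The Cd160 ratio was 1.56 (0.842 to 3.02), an interval that includes 1. Entpd1, the ectonucleotidase CD39, stood at 6.51, 14.1, 12.7 and 15.8 CPM in Mem Cd4, Cd160 at 11.7, 16.1, 17.9 and 25.1 CPM, and Havcr2 had 0 to 2 UMIs.

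Mem Cd8 cells differed from Mem Cd4 in which library stood highest. Lag3 stood at 5.62 CPM (2.26 to 11.6) in young WT, 37.3 (28.0 to 48.7) in aged WT, 276 (248 to 305) in the miR146a knockout and 125 (107 to 145) in the double knockout. Pdcd1 stood at 15.3 CPM (9.19 to 23.8), 30.4 (22.1 to 40.8), 114 (96.4 to 133) and 47.9 (37.3 to 60.6). Tox stood at 39.4 CPM (29.1 to 52.0), 98.8 (83.3 to 116), 222 (198 to 249) and 123 (105 to 142). For each of these 3 genes the miR146a knockout was above the 3 other libraries, its interval apart from all of theirs, and the double knockout lay between it and aged WT, its interval overlapping that of aged WT for Pdcd1 and Tox but not for Lag3. Havcr2, which encodes TIM-3 (chr11:46454935-46481255), had 0, 2, 32 and 6 UMIs, or 0, 1.38, 23.8 and 4.16 CPM. Entpd1 (chr19:40612366-40741602) had 1, 9, 25 and 9 UMIs, or 0.803, 6.22, 18.6 and 6.25 CPM.

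Cd160, a receptor of cytotoxic lymphocytes that binds HVEM (chr3:96798763-96829351), did not share that order: it stood at 138 CPM (118 to 160), 125 (108 to 145), 152 (132 to 174) and 108 (91.9 to 127) in Mem Cd8. From the highest level, the miR146a knockout, through young and aged WT to the lowest, the double knockout, each library's interval overlapped the next. The intervals of the 2 knockouts did not overlap, at a ratio of 1.40 (1.13 to 1.74). Tigit and Ctla4 had 0 to 7 UMIs in each Mem Cd8 library, too few for an order.

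From young to aged WT in Mem Cd8, Lag3 was higher 6.63-fold (3.01 to 17.3), Tox 2.51-fold (1.80 to 3.55) and Pdcd1 1.99-fold (1.14 to 3.61). These were 3 of the 4 genes with enough UMIs, where 10.6% of all genes were higher and 6.14% lower, and the fourth, Cd160, had a ratio of 0.905 (0.731 to 1.12). From aged WT to the miR146a knockout, Havcr2 was higher 17.2-fold (4.39 to 148, from 2 UMIs in aged WT), Lag3 7.39-fold (5.54 to 10.0), Pdcd1 3.74-fold (2.66 to 5.36), Entpd1 2.99-fold (1.35 to 7.27) and Tox 2.25-fold (1.84 to 2.76). These were 5 of 6 genes, where 8.31% of all genes were higher and 8.37% lower, and the members' median log2 ratio was 1.68 against 0.00 for all genes. From the miR146a knockout to the double knockout the same 5 of 6 genes were lower, where 9.38% of all genes were lower and 6.75% higher: Havcr2 5.71-fold (2.35 to 16.7), Entpd1 2.97-fold (1.34 to 7.24), Pdcd1 2.37-fold (1.77 to 3.20), Lag3 2.21-fold (1.84 to 2.65) and Tox 1.81-fold (1.497 to 2.19). The 2 comparisons share the miR146a knockout library, so each gene's high value there enters both. Against aged WT, the double knockout had 3.35-fold (2.46 to 4.63) the Lag3 level and 1.58-fold (1.06 to 2.36) that of Pdcd1, 2 of 4 genes where 5.04% of all genes were higher and 7.23% lower. The double knockout to aged WT ratio was 1.24 (0.992 to 1.56) for Tox and 1.005 (0.353 to 2.86) for Entpd1.

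**Figure D2:**
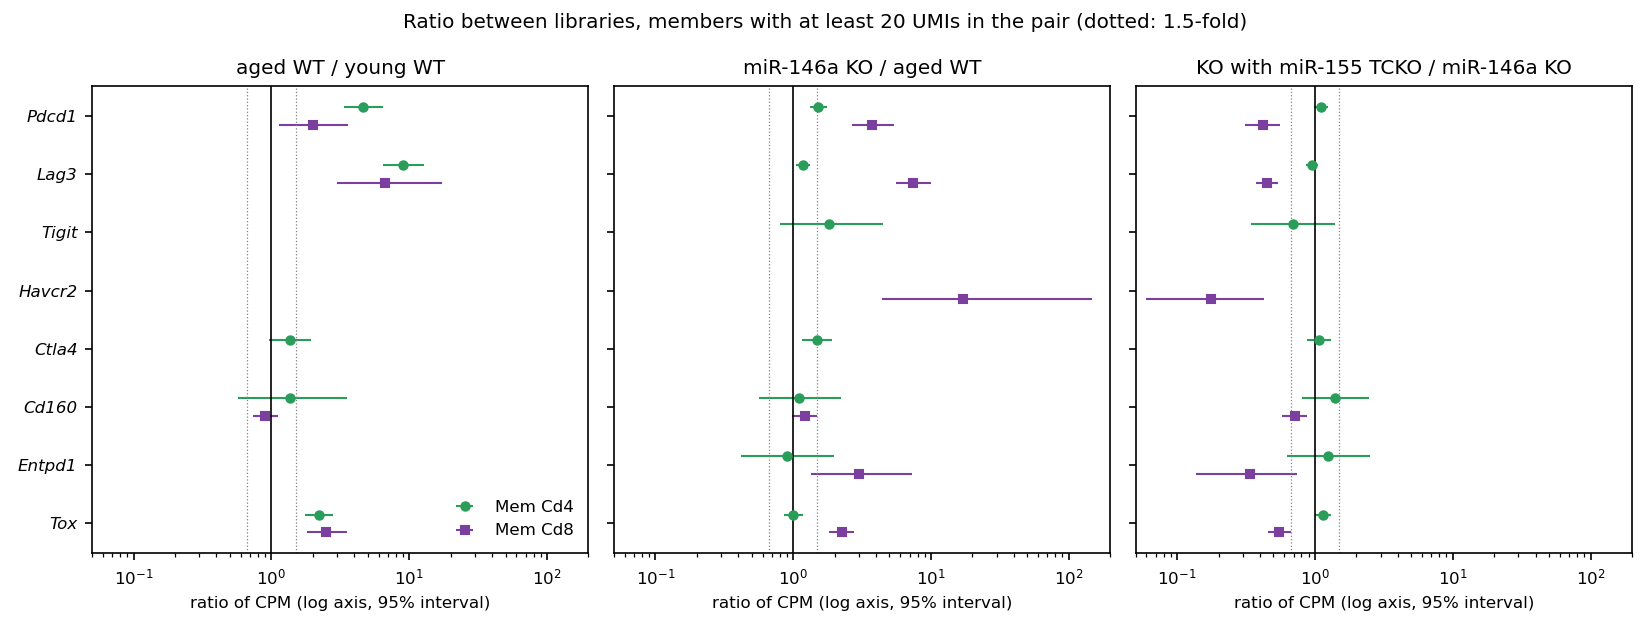
Ratio of CPM between 2 libraries (horizontal log axis, 95% conditional binomial intervals) for genes with at least 20 UMIs in the pair, in Mem Cd4 and Mem Cd8, with 1.5-fold marked by dotted lines. In the comparison of the double knockout with the miR146a knockout, the Mem Cd8 points of Pdcd1, Lag3, Havcr2, Entpd1 and Tox lie left of 1.5-fold lower and the Mem Cd4 points lie near 1.

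Lag3 UMIs were unevenly spread over Mem Cd8 cells. In the miR146a knockout, 133 cells held 371 Lag3 UMIs, of which 30 were in 1 cell and 38.8% in the 10 highest cells. In the double knockout, 73 cells held 180 Lag3 UMIs, 48.9% of them in 10 cells. Without the 10 richest cells of each library, the log2 ratio of the double to the miR146a knockout was -1.42 for Lag3, -1.55 for Pdcd1 and -0.97 for Tox. Those 10 cells held 38.8%, 24.2% and 18.7% of these genes' UMIs in the miR146a knockout and 48.9%, 39.1% and 24.3% in the double knockout. Their removal took the larger share from the lower library, so it cannot show whether few cells carry the difference. The shares of cells with a UMI had the same order: Lag3 in 1.65%, 8.70%, 30.7% and 14.9% of Mem Cd8 cells, Pdcd1 in 3.85%, 7.66%, 23.8% and 10.4%, Tox in 10.99%, 20.9%, 40.0% and 23.3%, and Havcr2 in 0%, 0.414%, 5.08% and 1.02%. A count of 0 of 364 young WT cells allows, at a floor of 3 counts, a share of cells with a Havcr2 UMI of up to 0.824%. After each cell was thinned to 1000 UMIs, Lag3 was detected in 0.554%, 5.01%, 16.4% and 9.03% of cells and Pdcd1 in 1.11%, 3.55%, 13.0% and 5.75%. Dendritic cells and macrophages carried Lag3 at 71.0 to 104 CPM and Havcr2 at 20.8 to 50.1 CPM. Without cells that held 3 or more UMIs of B or myeloid markers other than S100a8, all 35 member ratios in the memory types stayed within their counting intervals. In the 49 of 433 and 66 of 489 Mem Cd8 cells with no UMI of any such marker, S100a8 included, the double to miR146a knockout log2 ratio was -0.16 for Pdcd1 and, in the opposite direction, 0.89 for Lag3 and 0.06 for Tox. From aged WT to the miR146a knockout such cells gave 1.46 for Pdcd1, 1.27 for Lag3 and 0.35 for Tox.

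Nai Cd4 carried lower levels of Pdcd1, Lag3, Ctla4 and Tox than Mem Cd4 in each library. Lag3 had 0 UMIs in young WT Nai Cd4 and stood at 21.4 CPM (13.7 to 31.8) in aged WT, 89.6 (69.5 to 114) in the miR146a knockout and 52.0 (40.3 to 66.2) in the double knockout. Pdcd1 stood at 1.77, 15.1, 67.2 and 26.0 CPM, Tox at 48.5, 76.5, 126 and 73.3 CPM, and Ctla4 at 2.96, 25.8, 38.2 and 33.9 CPM. The miR146a knockout thus had the highest value for all 4 genes. For Pdcd1, Lag3 and Tox its interval lay apart from those of the other libraries, as in Mem Cd8. For Ctla4 its interval (25.6 to 54.9 CPM) overlapped those of aged WT (17.3 to 37.1) and the double knockout (24.5 to 45.7). From young to aged WT, Lag3 was at least 24.1-fold higher, Ctla4 8.73-fold (4.14 to 20.1), Pdcd1 8.53-fold (3.21 to 26.4) and Tox 1.58-fold (1.20 to 2.06), and 5 of 5 genes counted as higher, where 14.0% of all genes did and 4.06% were lower. Cd160, the remaining gene, had a ratio of 1.81 (0.697 to 4.41) from 9 and 15 UMIs, an interval that includes 1. From aged WT to the miR146a knockout 3 of 4 were higher (12.3% of all genes, with 7.70% lower), and from there to the double knockout 3 of 5 were lower (11.8% of all genes, with 6.09% higher), Pdcd1 2.58-fold, Tox 1.72-fold and Lag3 1.72-fold. The double knockout against aged WT had 2 of 5 genes higher, Pdcd1 and Lag3, where 6.79% of all genes were higher and 7.23% lower. The interval of that Pdcd1 ratio, 1.72 (0.931 to 3.29), included 1. In the same cells memory T markers summed to 211, 1101, 3365 and 1643 CPM and naive T markers to 2562, 1995, 652 and 1514 CPM, and Foxp3 was detected in 0.360%, 6.80%, 11.9% and 6.38%. The part of these mixed markers in the result was not tested. In Nai Cd8, Tox stood at 43.4, 37.6, 63.8 and 25.9 CPM and Cd160 at 17.7, 19.3, 17.4 and 15.5 CPM. The miR146a knockout value of Tox rests on 22 UMIs in 93 cells (40.0 to 96.6 CPM), overlapping aged WT (26.2 to 52.3). In Nai Cd8 memory T markers summed to 200, 632, 9602 and 1512 CPM and naive T markers to 2629, 2524, 1441 and 2303 CPM. The part of these markers in the Nai Cd8 levels was not tested. Neither Tox nor Cd160 counted as different between young and aged WT, where 7.85% of all genes were higher and 7.05% lower, or between the double knockout and aged WT, where 7.25% were higher and 7.63% lower.

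NK cells numbered 228, 97, 49 and 71 in the 4 libraries, too few for ratios, and Ncr1, which encodes the NK receptor NKp46, was detected in 86.4% to 93.9% of them. Cd160 had its highest levels there, at 167 CPM (133 to 209), 428 (350 to 517), 681 (571 to 805) and 596 (494 to 712), in 22.8%, 46.4%, 69.4% and 54.9% of cells. Lag3 stood at 4.24 CPM (0.513 to 15.3), 72.6 (43.1 to 115), 150 (101 to 214) and 104 (64.5 to 159), and Tox at 44.5 CPM (27.5 to 68.0), 96.8 (62.1 to 144), 135 (89.1 to 197) and 124 (80.3 to 183). Young WT was the lowest library for all 3 genes, with a Tox interval that overlapped that of aged WT, and the 3 aged libraries had overlapping Lag3 and Tox intervals. Early Act Cd8 had 70, 14, 35 and 43 cells. In the miR146a knockout these cells carried Pdcd1 at 416 CPM (320 to 531), Lag3 at 273 (197 to 369) and Ctla4 at 77.9 (40.3 to 136). However, Cd8a was detected in 2.86%, Cd8b1 in 5.71% and Cd4 in 42.9% of those 35 cells, and regulatory T markers summed to 987 CPM, so the data go against the CD8 name there.

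Co-detection was set against the shares of the single genes. At least 2 of the 8 genes were detected in 12.1%, 39.5%, 55.5% and 51.9% of Mem Cd4 cells, where detection of each gene independently of the others at its own share would give 10.4%, 40.9%, 56.0% and 55.3%. In Mem Cd8 the shares were 6.87%, 12.01%, 39.3% and 16.2%, where the single shares would give 5.84%, 12.3%, 41.6% and 15.8%. The miR146a knockout thus stood apart from the other aged libraries in Mem Cd8, and the 2 knockouts stood together in Mem Cd4. Cells with at least 3 of the genes made up 1.37%, 2.07%, 18.2% and 5.73% of Mem Cd8, where the single shares give 0.259%, 1.38%, 12.5% and 2.24%. The 95% intervals lay above what the shares give in young WT and both knockouts and included it in aged WT. In Mem Cd4 they made up 4.14%, 13.5%, 22.6% and 23.6%, where the shares give 1.09%, 11.1%, 20.9% and 20.2%, a value inside the interval in aged WT and the miR146a knockout and below it in the other two. Cells with more UMIs show more of every gene. Thinned to 1000 UMIs, at least 2 genes were found in 1.94%, 3.76%, 16.6% and 8.01% of Mem Cd8 cells, where the thinned single shares give 0.849%, 3.00%, 14.1% and 5.11%. In Mem Cd4 the thinned values were 5.21%, 22.0%, 27.4% and 30.5%, where the shares give 2.45%, 20.6%, 27.1% and 31%. For at least 2 genes, the thinned interval lay above what the shares give in the double knockout of Mem Cd8 and in young WT of Mem Cd4. It included that value in the other 6 sums. At least 3 genes were then found in 0.28%, 0.42%, 4.03% and 1.23% of Mem Cd8 cells, where the thinned shares give 0.012%, 0.15%, 1.98% and 0.37%. The interval lay above that in both knockouts, from 17 and 6 cells, and included it in both WT libraries. In Mem Cd4 the values were 0.65%, 4.55%, 6.09% and 8.16%, against 0.11%, 3.36%, 5.5% and 6.78%, inside the interval in each library.

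**Figure D3:**
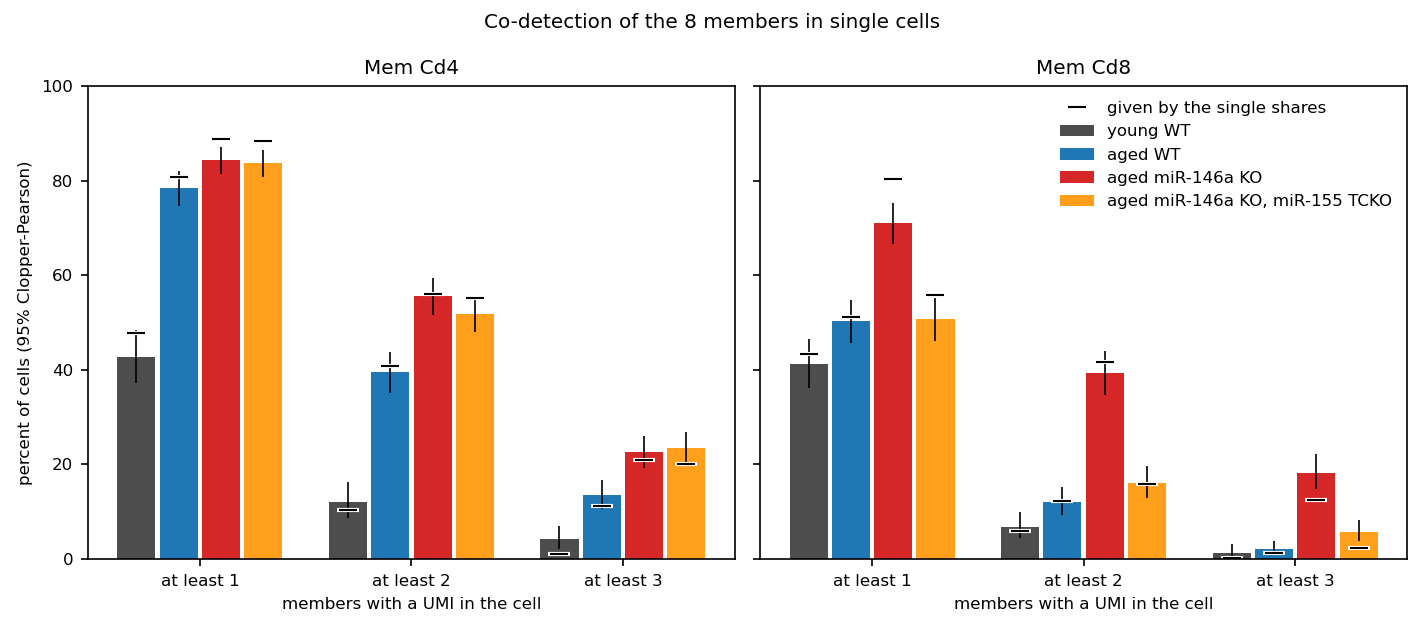
Percent of Mem Cd4 and Mem Cd8 cells (vertical axis) with a UMI of at least 1, 2 or 3 of the 8 genes in the 4 libraries, with 95% Clopper-Pearson intervals. Black marks show what the single-gene shares give if genes are detected independently. In Mem Cd8 the miR146a knockout bar at 3 or more genes (18.2%) lies above its mark (12.5%).

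Pairs showed which genes were found in the same cells. Pdcd1 and Lag3 were detected together in 60 Mem Cd8 cells of the miR146a knockout, where their single shares give 31.6, and in 26 of the double knockout, where they give 7.61. Thinned to 1000 UMIs per cell, the same pair had 21 cells against 8.99 and 7 against 2.53. Lag3 and Tox had 23, 70 and 39 cells in aged WT, miR146a knockout and double knockout, 2.62, 1.32 and 2.29 times what the shares give. Of 22 Mem Cd8 cells with Havcr2 in the miR146a knockout, 18 (81.8%) also had Lag3, where the shares give 6.76 cells. In Mem Cd4 of the 3 aged libraries, Pdcd1 was found with Lag3 and with Tox somewhat more often than the shares give. Pdcd1 with Lag3 was seen in 69, 151 and 173 cells, 1.09, 1.15 and 1.17 times what the shares give. Pdcd1 with Tox stood at 1.13, 1.19 and 1.27 times. Cd160 with Tox in Mem Cd8 stood at 1.48, 0.770, 1.05 and 0.784 times from young WT to the double knockout. Cd160 as the single gene detected made up 26.4%, 19.3%, 9.47% and 15.5% of Mem Cd8 cells, and cells with none of the 8 genes made up 58.8%, 49.7%, 28.9% and 49.3%. The combination of Pdcd1, Lag3 and Tox and no other member was seen in 20 Mem Cd8 cells (4.62%) of the miR146a knockout, and in 24, 41 and 57 Mem Cd4 cells of the 3 aged libraries.

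Within Mem Cd8, cells were split by a UMI of Gzmk, a granzyme of effector memory cells that accumulate with age. Gzmk was detected in 18 of 364, 136 of 483, 268 of 433 and 142 of 489 cells, or 4.95%, 28.2%, 61.9% and 29.0%, against at most 0.394% of Fo B cells. In Nai Cd4 cells it was detected in 0%, 0.825%, 5.64% and 2.62% in the same library order. Cells without a Gzmk UMI can include cells whose Gzmk was missed, and their part was not tested. Tox was detected in 40.4%, 48.5% and 47.2% of Gzmk-positive cells of aged WT, miR146a knockout and double knockout, and in 13.3%, 26.1% and 13.5% of Gzmk-negative cells. Lag3 was detected in 19.9%, 39.6% and 32.4% of the positive and in 4.32%, 16.4% and 7.78% of the negative cells, and Pdcd1 in 17.6%, 32.5% and 23.2% against 3.75%, 9.70% and 5.19%. These 3 genes were thus more frequent in Gzmk-positive cells in each aged library, although those cells held fewer UMIs (medians of 2011 to 2547 against 2907 to 3273). Cd160 was the other way round in aged WT (5.15% against 32.0%) and in the double knockout (11.97% against 25.1%), and near even in the miR146a knockout (27.2% against 32.1%).

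Within Gzmk-positive cells Tox stood at 287, 302 and 339 CPM in the 3 aged libraries, so the log2 ratio was 0.06 from aged WT to the miR146a knockout and 0.18 from there to the double knockout. Over all Mem Cd8 cells the same 2 steps were a higher and a lower level, and within Gzmk-negative cells the log2 ratios were 1.14 and -1.004. Lag3 stood at 113, 408 and 360 CPM in Gzmk-positive cells, with log2 ratios of 1.82 and -0.17, and at 18.2, 93.5 and 52.6 CPM in Gzmk-negative cells, with 2.32 and -0.83. Pdcd1 had log2 ratios of 0.77 and -0.24 in positive cells and 1.27 and -0.81 in negative cells. The miR146a knockout was therefore above aged WT for Lag3 and Pdcd1 on either side of the split. Between the 2 knockouts the differences were smaller among Gzmk-positive cells than over all Mem Cd8 cells. This split was computed as an alternative after the overall values were seen, and the part of the Gzmk-positive share in the overall ratios is given by these values only.

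**Figure D4:**
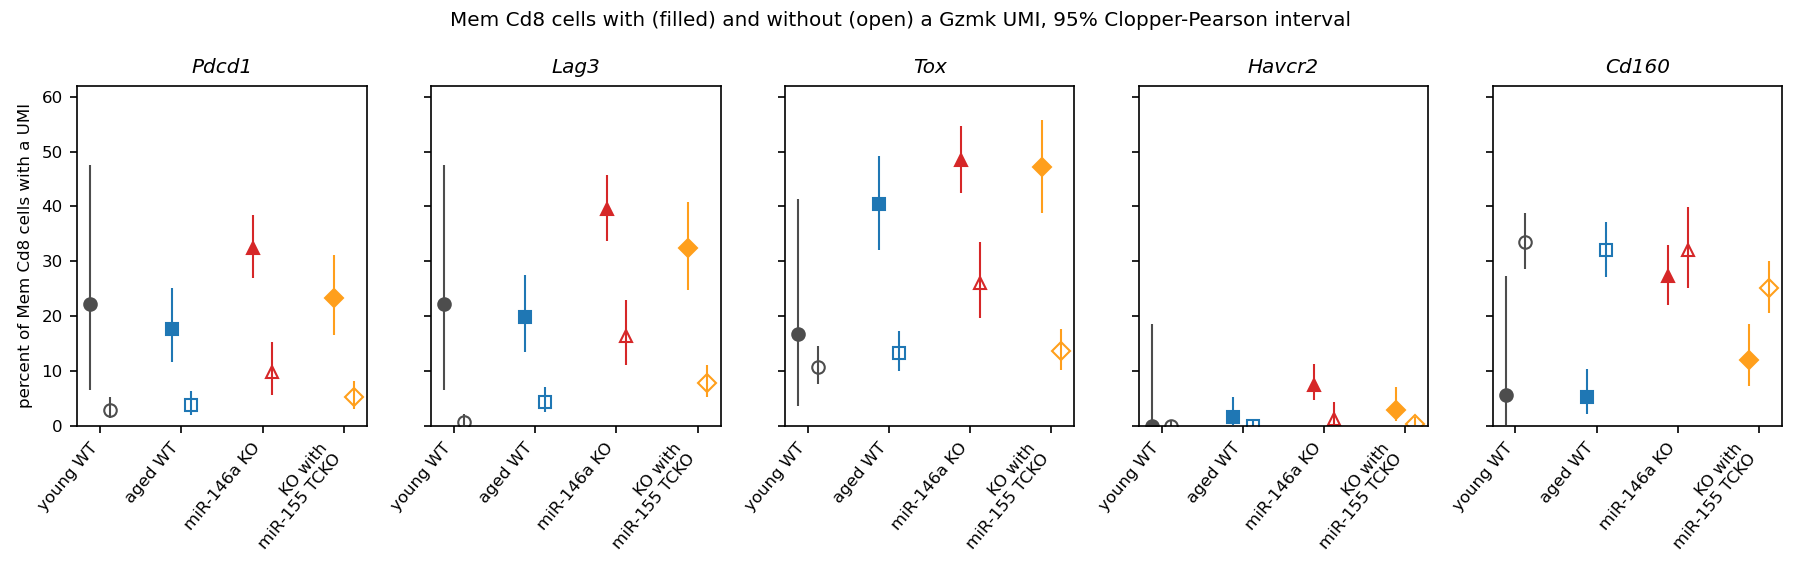
Percent of Mem Cd8 cells with a UMI (vertical axis) for 5 genes in 4 libraries, in cells with (filled) and without (open) a Gzmk UMI, with 95% Clopper-Pearson intervals. Tox is detected in 40.4% to 48.5% of Gzmk-positive cells of the 3 aged libraries and Cd160 in a smaller share of Gzmk-positive than Gzmk-negative cells in aged WT and the double knockout.

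Gzmb, a granzyme of killing effector cells, was detected in 6.04%, 7.25%, 34.2% and 9.20% of Mem Cd8 cells. In the miR146a knockout Havcr2 was found in 12.2% (7.37% to 18.5%) of 148 Gzmb-positive and 1.40% (0.384% to 3.55%) of 285 Gzmb-negative cells, Lag3 in 43.2% against 24.2% and Cd160 in 44.6% against 21.1%. These shares were not thinned, and cells with more UMIs show more of every gene. Ccr7, which marks naive and central memory cells, was detected in 33.2%, 23.4%, 8.55% and 23.7%. Pdcd1 was found in 0.826%, 0.885%, 8.11% and 4.31% of Ccr7-positive and in 5.35%, 9.73%, 25.3% and 12.3% of Ccr7-negative Mem Cd8 cells, although the Ccr7-positive cells held more UMIs.

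Within Mem Cd4, cells with a UMI of Foxp3, the factor of regulatory T cells, made up 21.0%, 10.4%, 21.3% and 16.9%. Lag3 was less frequent among them than among the rest in each library, in 4.55% against 7.66%, 24.5% against 41.8%, 35.9% against 53.0% and 39.0% against 48.6%. Ctla4 was more frequent among them, in 19.7% against 12.5%, 22.6% against 13.7%, 32.1% against 22.9% and 29.7% against 21.5%. No intervals are given for these Lag3 and Ctla4 shares, and the Lag3 share of 4.55% in young WT rests on very few cells. Cells with a UMI of Cxcr5, the receptor that takes helper cells to B cell follicles, made up 7.01%, 14.5%, 11.5% and 11.9%. Pdcd1 was found in 27.3%, 40.5%, 60.6% and 62.7% of them and in 7.53%, 29.2%, 40.9% and 42.6% of the rest. Among cells with a UMI of Il21, the follicular helper cytokine, Lag3 was found in 65.7%, 93.1% and 71.4% of 35, 29 and 42 cells of the 3 aged libraries, against 38.2%, 47.2% and 45.4% of the rest. The shares beside Foxp3, Cxcr5 and Il21 were not thinned, and cells with more UMIs show more of every gene. Without Foxp3-positive cells, all 19 member log2 ratios of Mem Cd4 stayed within their counting intervals.

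Other genes of the same pathways were read from fixed lists, by the same 1.5-fold rule, and each count is given with the share of all genes past the rule in that comparison. The list called other inhibitory receptors here also holds the enzyme genes Cd38 and Nt5e. Of its genes, 5 of 12 were higher (16.6% of all genes) and 0 lower (7.46%) from young to aged WT in Mem Cd4, and 6 of 14 higher (10.6%) and 1 lower (6.14%) in Mem Cd8. From aged WT to the miR146a knockout in Mem Cd8, 4 of 16 were higher (8.31%) and 2 lower (8.37%), and from there to the double knockout 2 were higher (6.75%) and 6 lower (9.38%). In cells without any B or myeloid marker UMI, the numbers higher were 3 with age in Mem Cd4 and, in Mem Cd8, 3 with age, 2 from aged WT to the miR146a knockout and 0 from there to the double knockout. Cd38, an enzyme that consumes NAD, stood at 14.5, 31.1, 78.8 and 30.5 CPM in Mem Cd8, highest in the miR146a knockout as were Pdcd1, Lag3 and Tox. Nt5e, the ectoenzyme CD73 that acts after CD39, was lower in the miR146a knockout, at 14.9 CPM against 33.2 in aged WT and 38.9 in the double knockout. In Mem Cd4 it stood at 79.4 CPM in young and 258 in aged WT.

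Ligands of the receptors were read in the same T cells. In Mem Cd8, 3 of 10 were higher with age (10.6% of all genes), led by the MHC class II genes H2-Ab1 at 112 and 231 CPM and H2-Aa at 90.0 and 172 CPM, which encode what LAG-3 binds. From aged WT to the miR146a knockout 2 were higher (8.31%) and 4 lower (8.37%), H2-Aa at 92.1 CPM among the latter. B cells carry MHC class II in quantity, and B cell markers summed to 132, 197, 95.8 and 88.8 CPM in the same cells; their part in these counts was not tested. From the miR146a to the double knockout 4 of 9 ligands were lower (9.38%). Lgals3, which encodes galectin-3, a LAG-3 ligand that myeloid cells make in quantity, stood at 29.7, 103 and 45.8 CPM in Mem Cd8 of the 3 aged libraries, beside the myeloid marker sums given above. In Mem Cd4 the ligand counts were 3 higher of 9 (16.6%), then 2 higher (6.96%) and 1 lower (7.70%) of 10, then 2 lower of 10 (6.16%).

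Of activating partners in Mem Cd4, 4 of 10 were higher with age (16.6%) and 0 lower (7.46%), Icos, which helper cells need in follicles, at 124 and 289 CPM. In the miR146a knockout against aged WT 3 were higher (6.96%) and 1 lower (7.70%), Tnfrsf9 (4-1BB) at 127 and 299 CPM in aged WT and the knockout. The double knockout had 1 higher (5.08%) and 0 lower (6.16%) than the miR146a knockout. In Mem Cd8, Cd226, the activating partner of TIGIT, stood at 61.0, 39.4, 16.3 and 31.9 CPM, the reverse of the order of Pdcd1, Lag3 and Tox, and Tnfrsf4 (OX40) at 6.91, 28.2 and 17.4 CPM in the 3 aged libraries.

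Of transcription factors linked to Tox, 7 of 14 were higher (16.6% of all genes) and 2 lower (7.46%) from young to aged WT in Mem Cd4. Bhlhe40 stood at 10.4 and 94.3 CPM, 9.06-fold (4.42 to 21.6), and Tox2, a close relative of Tox, at 13.0 and 66.2 CPM, 5.09-fold (2.60 to 11.1). There, 1 of 16 was higher in the miR146a knockout than in aged WT, near the 6.96% of all genes; it was Batf, at 245 and 384 CPM. In Mem Cd8, 8 of 15 were higher (10.6%) and 3 lower (6.14%) with age, Eomes at 79.5 and 180 CPM and Id3 at 185 and 60.8 CPM. Against aged WT, the miR146a knockout had 5 of 15 higher (8.31%) and 2 lower (8.37%). Prdm1, which encodes the effector factor Blimp-1, stood at 8.98, 26.0 and 6.94 CPM in the 3 aged libraries, Bhlhe40 at 23.5, 49.8 and 21.5, and Tcf7, which encodes TCF-1 of stem-like memory cells, at 196, 126 and 190. From the miR146a knockout to the double knockout 1 of 15 was higher (6.75%), Tcf7, and 3 lower (9.38%).

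Genes whose levels varied most like a member were ranked by Pearson correlation of log2(CPM + 1) over 16 sums of a library and type with at least 100 cells, among 6931 genes. These sums share libraries and types, so the values are descriptions. Closest to Pdcd1 were Bcl2a1b (0.99), Aplp1 (0.98) and Podnl1 (0.98), and to Lag3 Plekhb2 (0.97), Atxn1 (0.96) and Cxcr5 (0.95). Closest to Tox were Bcl2a1b (0.96), Mir155hg (0.95) and Pdcd1 (0.95), and to Ctla4 Cd200 (0.98), Ikzf4 (0.98) and Pou2f2 (0.97). Mir155hg had only 1 to 8 UMIs in each Nai Cd4 and Nai Cd8 sum used, so its value rests on low counts. Cd160 was closest to Ccl5 (0.95), F2r (0.94) and Klrk1 (0.93). Among the 8 genes themselves, Pdcd1 varied with Tox (0.95) and Lag3 (0.92), and Cd160 with neither Pdcd1 (0.02) nor Tox (0.02) and against Ctla4 (-0.50).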

How the data were processed

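The authors deposited raw UMI counts per gene and barcode for 4 libraries, and a cell type name (unit: other, 16 names) for most barcodes. Per the submitters' processing notes, Cell Ranger 3.0.0 and mm10 were used. The sources used here do not say how the names were assigned or whether doublets were removed first. Both 3′ and 5′ capture are named for these libraries, and capture at 1 transcript end limits comparison of levels between genes. From the deposited counts, UMIs were summed per type and library and given as CPM. Levels have Poisson, shares Clopper-Pearson and ratios conditional binomial intervals at 95%. With 1 library per group no test was run, and depth sets only the counting error. Ratios needed 100 cells of the type in both libraries and levels 30. Barcodes named T/B dbl (doublets) and barcodes without a name were left out, and no doublet caller was run. Python 3.11.15, numpy 2.4.6, scipy 1.17.1 and pandas 2.3.3 were used, with edgeR for TMM factors only, and the interval and ratio steps were checked on simulated data. All 8 genes were described. From the related lists up to 2 genes of highest and 2 of lowest ratio per comparison could be named, and per member with 200 UMIs the 3 genes of most similar levels. Immunoglobulin, T cell receptor, mitochondrial, ribosomal protein and sex-linked genes were left out of the latter. Seed and motif matches came from GENCODE 3′ UTRs and RefSeq promoter windows. The genes, lists and comparisons were chosen with earlier results of these data known. Alternatives were TMM scaling, the mean of per-cell CPM, thinning, marker-free cells, other minimums and folds, and leaving out the cells richest in a gene. Cells with fewer than 3 marker UMIs, the Gzmk split and leaving out 10 cells were added after the data were seen.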

Additional observations from a re-analysis of the deposited data

Results flagged for a closer look

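Barcodes without a cell type name, which no comparison used, carried Lag3 at 46.06 CPM in aged WT (129 UMIs in 69 of 1056 barcodes), 50.49 CPM in the miR146a knockout (242 UMIs in 94 of 870) and 44.58 CPM in the double knockout (184 UMIs in 85 of 703). In young WT the level was 17.5 CPM (25 UMIs in 15 of 805 barcodes). The 95% Poisson intervals of the 3 aged libraries, between 38.4 and 57.3 CPM, lay above the young interval of 11.3 to 25.9 CPM. The cells behind these barcodes were not named, and their part in the levels of the named types was not tested.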

How the results depend on the processing

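No paired analysis was possible because each group had 1 library. Of 292 recomputed log2 ratios of single genes, 251 stayed within the reported counting interval, 38 moved and 3 reversed. With TMM scaling all 35 stayed. The reversals were all from the miR146a to the double knockout in Mem Cd8: Lag3 (0.885) and Tox (0.057) in cells without any B or myeloid marker UMI, and Tox (0.176) in Gzmk-positive cells; the cause was not tested. Of 96 recomputed counts of the related lists, 59 stayed within 1.5 times and 37 moved; the numbers of other inhibitory receptors that were higher moved in all 6 comparisons of marker-free cells. Counts of the 8 genes past 1.5-fold moved as follows. In Mem Cd4 with age, 6 were higher with no minimum of UMIs. In Mem Cd4 from aged WT to the miR146a knockout (2 as reported), 1 was higher in marker-free cells, with a minimum of 50 UMIs or in cells with fewer than 3 marker UMIs, and 0 when thinned or at a fold of 2. In Mem Cd4 between the knockouts (0 either way), 1 was higher without the 10 richest cells and 1 lower in marker-free cells. In Mem Cd8 with age, 6 were higher and 1 lower with no minimum. In Mem Cd8 from aged WT to the miR146a knockout (5 as reported), 3 were higher in marker-free cells, when thinned, with a minimum of 50 UMIs or without the 10 richest cells. In Mem Cd8 between the knockouts (5 lower), 3 were lower when thinned or with a minimum of 50 UMIs, and in marker-free cells 0 were lower and 1 higher. Shares of cells with at least 2 genes, from young WT to the double knockout, were 5.21%, 22.0%, 27.4% and 30.5% in Mem Cd4 and 1.94%, 3.76%, 16.6% and 8.01% in Mem Cd8 when thinned, and 1.91%, 8.79%, 13.8% and 16% in Mem Cd4 and 0.549%, 1.66%, 11.6% and 3.07% in Mem Cd8 when a gene needed 2 UMIs. In marker-free cells they were 50.5% in Mem Cd4 of the miR146a knockout and 27.3% in Mem Cd8 of the double knockout. Depth limits Tigit, Havcr2 and Entpd1 most, with 67, 52 and 145 UMIs in all T and NK cells, and 1 library per group leaves differences between mice, pools and preparations unmeasured.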
